A study of Mus musculus with 6 samples.

Results

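This account describes where H3K79me2, histone H3 dimethylated at lysine 79, lay over protein-coding genes in control N2a cells (CTR), an established mouse neuroblastoma line. The 2 CTR libraries, of 6 libraries in the series, were chosen by their titles, and every protein-coding gene of GENCODE mouse release 21 on chromosomes 1 to 19 was described, 20807 of 55450 annotated genes. CTR cells were transfected with the pLKO.1-shCTR plasmid, which carries a non-targeting short hairpin RNA, and were fixed after 3 days in vitro. The replicates were separate passages with separate transfections, and chromatin was precipitated with an antibody against H3K79me2 and sequenced (ChIP-seq). The knockdown libraries and the pooled inputs were not used here. With a single line, a single hairpin and 1 group there is no contrast to test. Each value is given for CTR 1 and CTR 2 or for bases covered in both lists. The difference between the libraries is the only spread available. Values for bases in both lists can lie outside the range of the libraries, because joint coverage is narrower than either list.

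H3K79me2 is written by DOT1L, a methyltransferase that acts on the globular face of the nucleosome and has no SET domain. DOT1L associates with proteins of the elongating RNA polymerase II, and its activity is raised by ubiquitination of histone H2B. The mark is therefore known as a mark of transcribed genes that lies over their 5′ part, downstream of the promoter.

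The broad lists held 48764 peaks in CTR 1 and 34845 in CTR 2, which covered 232 Mb and 219.8 Mb of chromosomes 1 to 19. Bases covered in both lists, called shared here, amounted to 210.5 Mb, or 8.55% of these chromosomes. Of the shared bases 94.1% lay inside coding gene bodies, which make up 40.3% of the sequence. Read numbers are not in the lists. The fold and p of 75539 narrow peaks in CTR 1 and 65750 in CTR 2 were solved for the pileup that MACS2 took as background. The median was 11.9 for CTR 1 and 7.65 for CTR 2, the higher value being that of the library with more peaks. Whether this value stands for depth, and its part in the differences between the libraries, was not tested.

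A gene was called marked at its start when a shared base lay within 500 bp of the 5′ end of its annotation. By this rule 8822 of 20807 coding genes were marked, 42.4%. The single lists gave 9300 genes in CTR 1 and 8899 in CTR 2, and 465 genes were marked in CTR 1 alone against 64 in CTR 2 alone. A further 1910 genes (9.18%) had shared bases in the body but not at the start, 375 had covered bases in the lists but none shared, and 9684 had neither a covered base nor a segment at the start. The last 16 genes had a segment just upstream in 1 list. No base of the body was covered in either list in 9765 genes, 46.9%, which includes 65 marked genes and the 16 genes above whose segment lay upstream. At the other extreme, 1952 genes (9.38%) were shared over at least 90% of the body.

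Many genes with a covered body and an unmarked 5′ end had another annotated start under the mark. This held for 985 of the 1910 genes, 51.6%. Gata3, a transcription factor of sympathetic neurons, was shared over 66.2% of its 33.0 kb record, and the mark ran 10.8 kb from the start of its principal transcript, which lies inside the record. The same was seen at Aff1, a scaffold of the super elongation complex, with 20.02 kb from the principal start, and at Kcnma1, a calcium-activated potassium channel gene, with 10.5 kb.

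The mark lay downstream of the start and rose steeply there. Among marked genes the start base itself was shared in 59.4%, whereas 1 kb downstream 94.0% of genes were covered and 1 kb upstream 38.1%. The share declined to 75.2% of the genes long enough at 5 kb, 61.3% at 10 kb, 49.7% at 20 kb and 39.0% at 50 kb. Of the 2890 marked genes with no other coding gene within 5 kb, the segment reached a median of 29 bp upstream and 11575 bp downstream, and it reached farther downstream than upstream in 97.3%. The strongest narrow summit of a marked gene was sought from 5 kb upstream of the start to the gene end. In genes longer than 5 kb this window was wider downstream than upstream, which favours a downstream position. The summit lay at a median of 742.5 bp after the start in CTR 1 and 896 bp in CTR 2. In 64.4% and 61.5% of genes it fell within the first 2 kb.

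**Figure D1:**
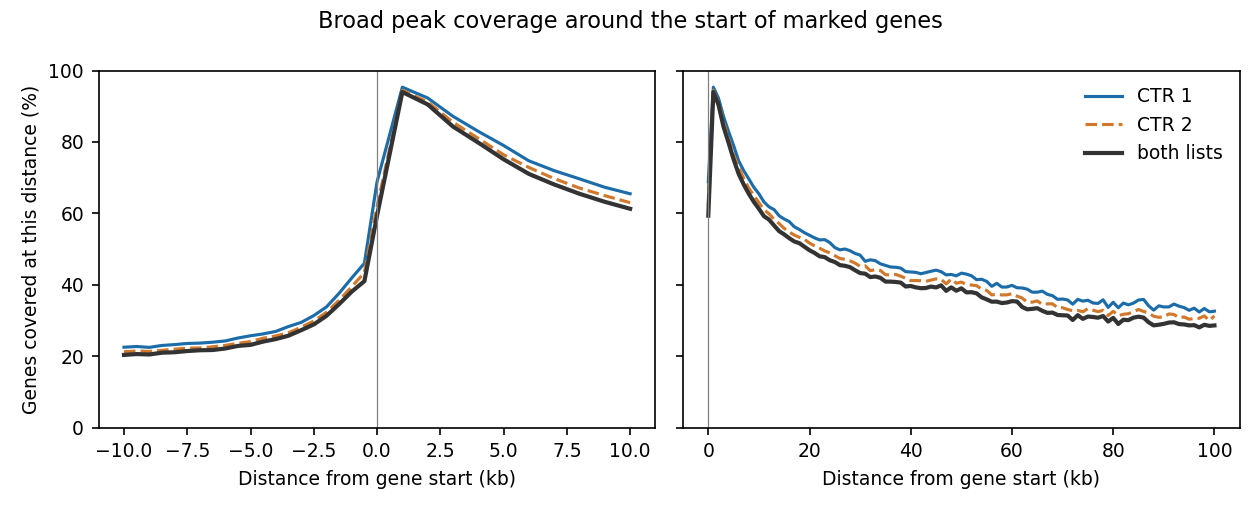
Share of the 8822 marked genes (y axis, percent) whose base at a given distance from the gene start (x axis, kb) was covered by broad peaks of CTR 1, of CTR 2 or of both lists, with genes shorter than the distance left out. Coverage in both lists rose from 38.1% at 1 kb upstream to 94.0% at 1 kb downstream and declined to 28.7% at 100 kb, with CTR 1 above CTR 2 throughout.

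The distance from the start to the end of the covered segment, stopped at the gene end, is called the run. The median run over marked genes was 7112 bp in shared bases, with quartiles of 3235 and 15945 bp, and it was 11227 bp in genes with no coding neighbour within 5 kb. In the single lists it was 7611 bp in CTR 1 and 7559 bp in CTR 2 for the same genes. The run reached the gene end in 1250 genes (14.2%) and was at least 10 kb in 3454 (39.2%), at least 50 kb in 340 and at least 100 kb in 45. From the narrow lists 9.25% of runs reached the gene end. In 267 genes the run was 0 bp because the segment lay upstream of the start.

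Run length followed gene length up to a point. In genes under 5 kb the median run was 2428 bp, 61.4% of runs reached the gene end and the median marked gene was covered over 97.9% of its body. The median run was 4996 bp in genes of 5 to 10 kb, 6929 bp at 10 to 20 kb, 10405 bp at 20 to 50 kb and 17656 bp at 50 to 100 kb. Beyond 100 kb it rose little, to 18523 bp at 100 to 200 kb and 21183 bp from 200 kb upward, where 0% of runs reached the gene end. In CTR 1 and CTR 2 the medians were 18833 and 20271 bp at 50 to 100 kb and 19380 and 20683 bp at 100 to 200 kb, so the last step but one was smaller than the difference between the libraries, whereas the steps up to 100 kb were larger. The share of marked genes was highest at 50 to 100 kb, 53.9%, and lower at both ends, 26.8% under 5 kb and 32.8% from 200 kb upward.

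**Figure D2:**
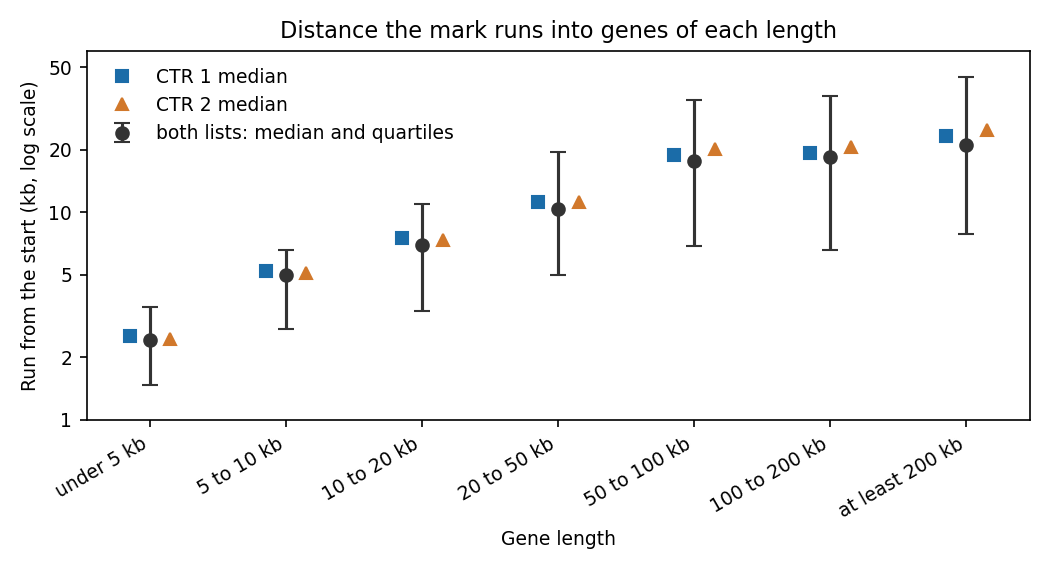
Median run of the mark from the gene start (y axis, kb, log scale) for marked genes in 7 classes of gene length (x axis). Circles and bars give the median and quartiles of shared bases, squares CTR 1 and triangles CTR 2. Medians rose from 2428 bp under 5 kb to 17656 bp at 50 to 100 kb and little beyond.

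The longest runs covered most of long genes. Tcf4, a basic helix-loop-helix factor of neural development on chromosome 18 (69343356 to 69689079, plus strand), carried the mark from its start over 339.7 kb in CTR 1 and 342.4 kb in CTR 2. In Efna5, an ephrin ligand of axon guidance on chromosome 17 (62604184 to 62881317, minus strand), the run was 266 kb and 272 kb. Rere, a transcriptional corepressor, had 230.7 kb in both libraries before a gap, and was shared over 99.2% of its 340.3 kb. The other genes of this group were Slco3a1, an organic anion transporter, with 237 and 235 kb, Ppp3ca, the catalytic subunit of calcineurin, with 208 and 213 kb, and Pcbp3, a poly(C)-binding protein, with 199 and 196 kb. These 6 genes were chosen by the run in the library where it was shorter. That rule favours genes with similar runs in both libraries, so their closeness here is no measure of agreement.

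Among the longest genes with no covered base were genes of neuronal adhesion. Ptprd, a receptor tyrosine phosphatase of 2271 kb, Cntnap2, a neurexin-like adhesion gene of 2245 kb, Csmd1 of 1643 kb and Fhit, a diadenosine hydrolase gene of 1612 kb, had 0 bp in either broad list. Narrow peaks were nevertheless called in both libraries within Cntnap2, Csmd1 and Fhit. The highest of them, in Csmd1, ranked at percentile 85.2 of the narrow list in CTR 1 and 78.9 in CTR 2.

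The run was similar in both libraries in most genes. It differed by a median of 241 bp between CTR 1 and CTR 2, and by at most 1 kb in 76.8% of marked genes. CTR 1 had the longer run in 4642 genes and CTR 2 in 2756. The widest differences came from gaps inside long covered genes. In Clvs1, which encodes the lipid-binding protein clavesin, the run was 40.4 kb in CTR 1 and 155.0 kb in CTR 2, although 94.0% and 92.4% of the body were covered. Maml3, a Notch coactivator, had 57.6 and 160.7 kb with 92.7% and 91.4% covered. Gnaq, a G protein subunit, had 35.5 and 137 kb, and Med13l, of the Mediator kinase module, 81.3 and 160.3 kb. In all 4 genes the longer run was in CTR 2, and with segments within 1 kb joined the shared run rose to between 137 and 171 kb.

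The strength of a gene was taken from the highest fold of a broad peak that met its body, ranked within its own list, since the fold itself is set on the background of each library. Over the 10654 genes with a peak in both lists the ranks of CTR 1 and CTR 2 differed by a median of 3.41 percentile points (Spearman rho 0.965 across genes, which share each library's peaks). Marked genes had a median rank of 91.7 in CTR 1 and 88.4 in CTR 2, and genes covered in the body alone 82.9 and 76.3. Both libraries were above percentile 98 in 731 of the marked genes, 8.29%, and over all coding genes the share was 3.85%.

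The highest ranks were shared by neighbouring genes. Eif4ebp1, a repressor of cap-dependent translation on chromosome 8 (27260329 to 27276674, plus strand), was covered over its whole body with a fold of 32.2 in CTR 1 and 29.9 in CTR 2. Ptbp1, a repressor of neuronal splicing on chromosome 10 (79854427 to 79864771, plus strand), had 31.5 and 27.4, and the same peak met the end of Plppr3, whose own start was not marked in both lists. Szrd1 on chromosome 4 (141113001 to 141139775, minus strand) was covered from end to end with 32.8 and 24.9, and its peak extended into Spata21, which was shared over 6.44% of its body. The sixth gene was Ankrd11, a chromatin cofactor, with 30.5 and 30.4 and 98.4% of 158 kb shared. For Plppr3 and Spata21 the rank is therefore that of a neighbour's peak.

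Stronger genes carried longer runs. Among marked genes of at least 20 kb, the median run rose from 4171 bp where the mean rank was under 80 to 11025 bp at 80 to 90, 18074 bp at 90 to 95, 21463 bp at 95 to 98 and 24185 bp above 98. In CTR 1 these medians ran from 4785 to 24508 bp and in CTR 2 from 4881 to 24736 bp. Median gene length lay between 41321 and 48551 bp in these classes. Across the 8714 marked genes with a rank in both libraries, Spearman rho between run and rank was 0.378, with both values taken from the same peaks.

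The end of the run was then set beside gene structure. In 7908 marked genes with more than 1 exon and a principal start within 500 bp of the gene start, the run ended in the first intron in 18.9%, before it in 3.31%, after it in 64.5% and at the gene end in 13.3%. Runs grew with the first intron: the median was 3908 bp where this intron was under 1 kb, 5744 bp at 1 to 5 kb, 10238 bp at 5 to 10 kb, 17105 bp at 10 to 20 kb and 28032 bp at 20 to 50 kb. With first introns of at least 50 kb the median was 24730 bp, and 79.03% of runs ended inside the intron.

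The same order was seen among genes of similar length. In genes of 50 to 100 kb the median run was 7160 bp with a first intron of 1 to 5 kb (n = 214), 12291 bp at 5 to 10 kb (n = 157), 20363 bp at 10 to 20 kb (n = 264) and 30769 bp at 20 to 50 kb (n = 394). The medians for the last class were 31907 bp in CTR 1 and 33002 bp in CTR 2, a difference smaller than the steps between classes. In genes of 100 to 200 kb the same 4 classes gave 6158, 11076, 18091 and 26438 bp. First introns under 1 kb did not follow this order, with 10027 bp (n = 96) and 17216 bp (n = 38) in these 2 classes of gene length, nor did those of at least 50 kb, with 25320 bp (n = 54) and 18935 bp (n = 140). Among genes with no coding neighbour within 5 kb, medians rose from 6706 bp to 28250 bp between first introns of 1 to 5 kb and of 20 to 50 kb.

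**Figure D3:**
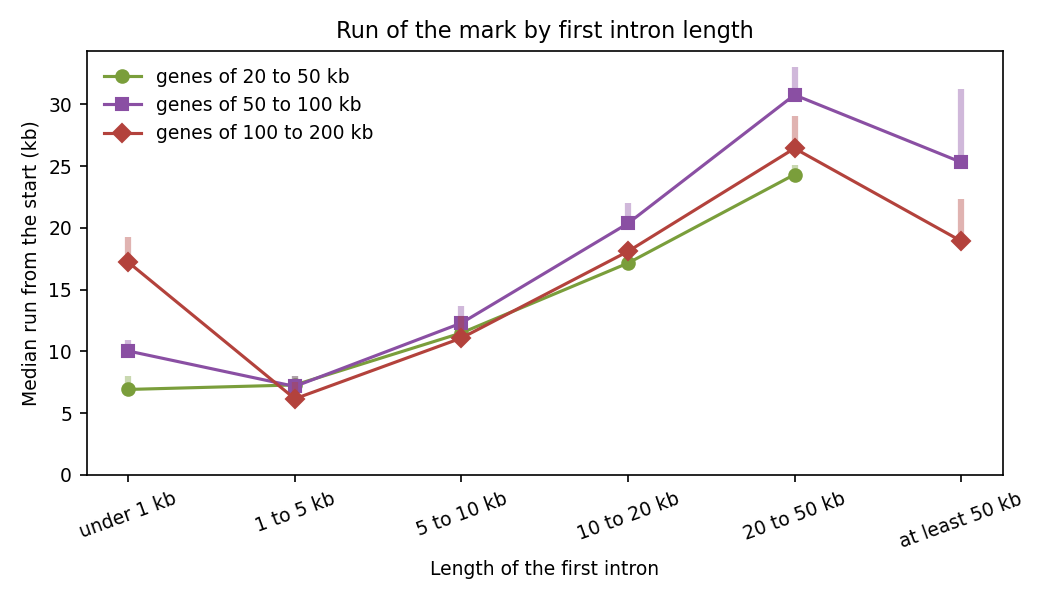
Median run of the mark (y axis, kb) against the length of the first intron (x axis, 6 classes) in marked genes of 20 to 50, 50 to 100 and 100 to 200 kb, with vertical bars over the range of the shared, CTR 1 and CTR 2 medians. In genes of 50 to 100 kb medians rose from 7160 bp to 30769 bp between first introns of 1 to 5 kb and of 20 to 50 kb.

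Promoter sequence differed between marked and unmarked genes. The ratio of observed to expected CpG is the number of CG dinucleotides over that given by the C and G content. A low value means that CG is rarer than that content gives. The ratio was computed in the 250 bases before and 50 bases after each start. Its median was 0.799 in marked genes (quartiles 0.645 and 0.930) and 0.270 in genes without the mark at the start (0.122 and 0.536). A ratio of at least 0.6 was found in 79.4% of marked genes and in 20.6% of the others. The share of marked genes rose with each step of the ratio, from 4.28% under 0.2 to 38.9% at 0.4 to 0.6, 78.4% at 0.8 to 1.0 and 86.6% from 1.0 upward. In the class of 0.6 to 0.8 it was 68.4% in CTR 1 and 65.4% in CTR 2, less than any step between neighbouring classes. Within marked genes the ratio followed rank and run weakly, with Spearman rho of 0.195 for each.

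**Figure D4:**
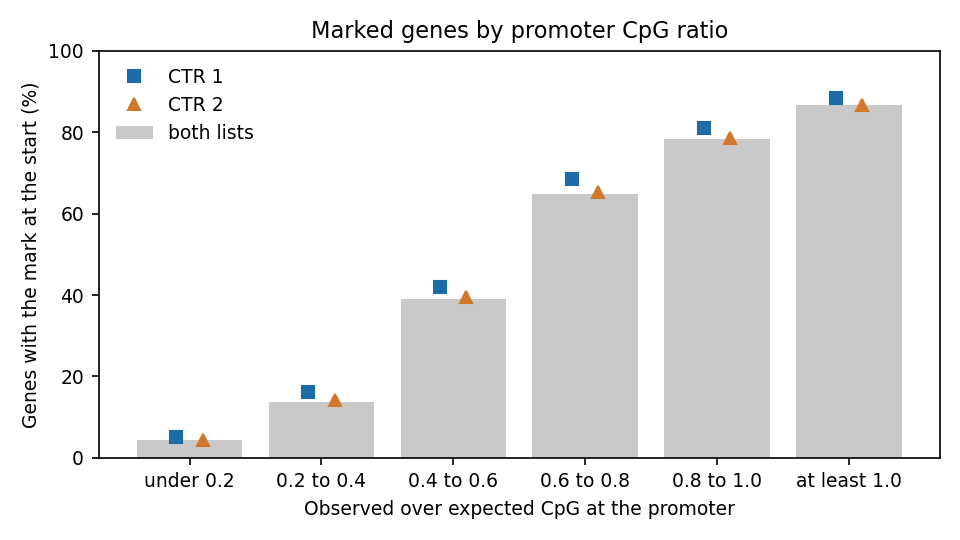
Share of coding genes with the mark at the start (y axis, percent) in 6 classes of the promoter CpG ratio (x axis), as bars for both lists and points for CTR 1 and CTR 2. The share in both lists rose from 4.28% in the lowest class to 86.6% in the highest.

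A CG-rich promoter was not always marked. Of 9473 genes with a ratio of at least 0.6, 1709 (18.0%) had no covered base in either list. The 4 promoters below show both sides, as the 250 bases before the RefSeq start on GRCm38.p6, 5′ to 3′ on the strand of the gene, with each CG in capitals. These starts lay 5 bp (Ptbp1) and 27 bp (Alb) from the GENCODE 5′ end and at the same base for Hand2 and Hoxa5. Ptbp1 (chr10:79854182-79854431, plus strand) and Hand2, a sympathoadrenal transcription factor (chr8:57320733-57320982, plus strand), were marked and held 17 and 15 CG. Hoxa5, a homeobox gene of body patterning (chr6:52204588-52204837, minus strand), held 28 CG and its body had 0 covered bp. Alb, which encodes serum albumin (chr5:90460620-90460869, plus strand), held 2 CG and also had 0 covered bp. Over all coding genes the median was 8 CG in this window, 16.5 in marked and 4 in other genes, and 92.6% of windows held at least 1 CG.
Ptbp1: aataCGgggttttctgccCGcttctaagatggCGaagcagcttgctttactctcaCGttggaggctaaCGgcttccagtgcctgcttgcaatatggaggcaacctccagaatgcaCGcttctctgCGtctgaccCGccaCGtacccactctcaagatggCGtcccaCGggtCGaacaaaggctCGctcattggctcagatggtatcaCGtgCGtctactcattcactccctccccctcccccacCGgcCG
Hand2: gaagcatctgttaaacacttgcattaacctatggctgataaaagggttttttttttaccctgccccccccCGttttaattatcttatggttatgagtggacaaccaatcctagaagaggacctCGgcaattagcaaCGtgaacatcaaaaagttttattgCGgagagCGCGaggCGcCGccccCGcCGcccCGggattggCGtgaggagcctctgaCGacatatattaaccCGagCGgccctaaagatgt
Hoxa5: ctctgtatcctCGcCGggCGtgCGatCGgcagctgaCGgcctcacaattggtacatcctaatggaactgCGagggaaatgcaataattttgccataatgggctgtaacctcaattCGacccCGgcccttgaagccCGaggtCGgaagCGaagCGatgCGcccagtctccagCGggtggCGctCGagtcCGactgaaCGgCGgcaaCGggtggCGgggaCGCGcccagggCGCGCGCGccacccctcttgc
Alb: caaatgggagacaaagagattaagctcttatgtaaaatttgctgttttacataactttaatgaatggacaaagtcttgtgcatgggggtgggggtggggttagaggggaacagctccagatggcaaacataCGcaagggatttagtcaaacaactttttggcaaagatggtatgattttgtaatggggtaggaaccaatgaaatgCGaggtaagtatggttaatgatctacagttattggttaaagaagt

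The label of the cells was set beside marker lists. The mark on a gene is not its RNA, so these counts describe chromatin. Of 20 genes of sympathoadrenal identity 12 were marked at the start, and of 19 neuronal genes 15, against 42.4% of all coding genes. A promoter CpG ratio of at least 0.6 was found in 11 and 13 of these genes. Of all coding genes with such a ratio 74.0% were marked. Hand2 was covered over its whole 3.65 kb in both libraries and ranked at percentile 99.8 in each. Mycn, the driver oncogene of many neuroblastomas, was covered over 99.7% in shared bases and ranked at 99.7 in each library. Ret, a receptor of neurotrophic factors, had runs of 39203 bp in CTR 1 and 37077 bp in CTR 2. Mycn and Ret were named after their values were seen, and so were, in the account of the lists that follows, Ddc, Hand1, Tfap2b, Ncam1, Nefl, Nefm, Des, Cnp, Cx3cr1, Dot1l, Ccnt1, Ccnt2, Aff3, Aff4, Ell, Ell2, Ell3, Cdk1, Cdk4, Ccnd2, the Hoxc genes, Dppa4, Olfr1047, Vmn1r4 and Defb42.

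Other members of this list carried little or none of the mark. Th, the rate-limiting tyrosine hydroxylase, was shared over 7.04% of its record with ranks of 47.3 and 41.5. The start of its record was not marked, whereas its principal start was, with a run of 0.121 kb. Dbh, dopamine beta-hydroxylase, and Ddc, the aromatic amino acid decarboxylase, had 0 bp. Hand1 and Tfap2b, transcription factors of the same list, also had 0 bp.

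Most neuronal genes were marked. Tubb3, neuronal beta-tubulin, was covered over 97.7% in CTR 1 and 97.3% in CTR 2 and ranked at 99.8 and 99.5. Stmn1, which destabilises microtubules, was covered over its whole 5.52 kb. Ncam1, a neural adhesion molecule, had runs of 192499 bp in CTR 1 and 192251 bp in CTR 2. Map2, a dendritic microtubule protein, had runs of 3.83 and 3.79 kb from its start, with 14523 bp of the 267 kb body covered in CTR 1 and 14122 bp in CTR 2, and its principal start was not marked. Nefl and Nefm, which encode neurofilament subunits, and Rbfox3, a marker of mature neurons, had 0 bp.

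Markers of other lineages were mostly bare. The counts marked at the start were 2 of 15 for glia, 0 of 14 for blood and immune cells, 0 of 12 for endothelial and mesenchymal cells, 0 of 11 for liver and 1 of 11 for striated muscle. A promoter CpG ratio of at least 0.6 was found in 5, 0, 1, 0 and 0 genes of these lists, in the same order. Of all coding genes under this ratio 16.0% were marked. Whether the lists differ from each other beyond their promoter class was not tested. The defining genes Gfap, Olig2, Ptprc, Spi1, Col1a1, Alb and Ttn had 0 covered bp in either list. Where such genes were marked, the runs were short. In Mbp, which encodes myelin basic protein, the run ended 1535 and 1011 bp after the start, 1438 and 1173 bp of the body were covered, and the ranks were 41.2 and 19.8. In Des, which encodes desmin, the run was 692 and 455 bp. Cnp, of the glial list, was shared over 56.3% of its body and Cx3cr1, of the immune list, over 9.49%, each without the mark at its start in both lists, although Cnp was marked in CTR 1 with a run of 2327 bp. Pecam1, of the endothelial list, was covered over 0.255% in CTR 1 and 0% in CTR 2.

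**Figure D5:**
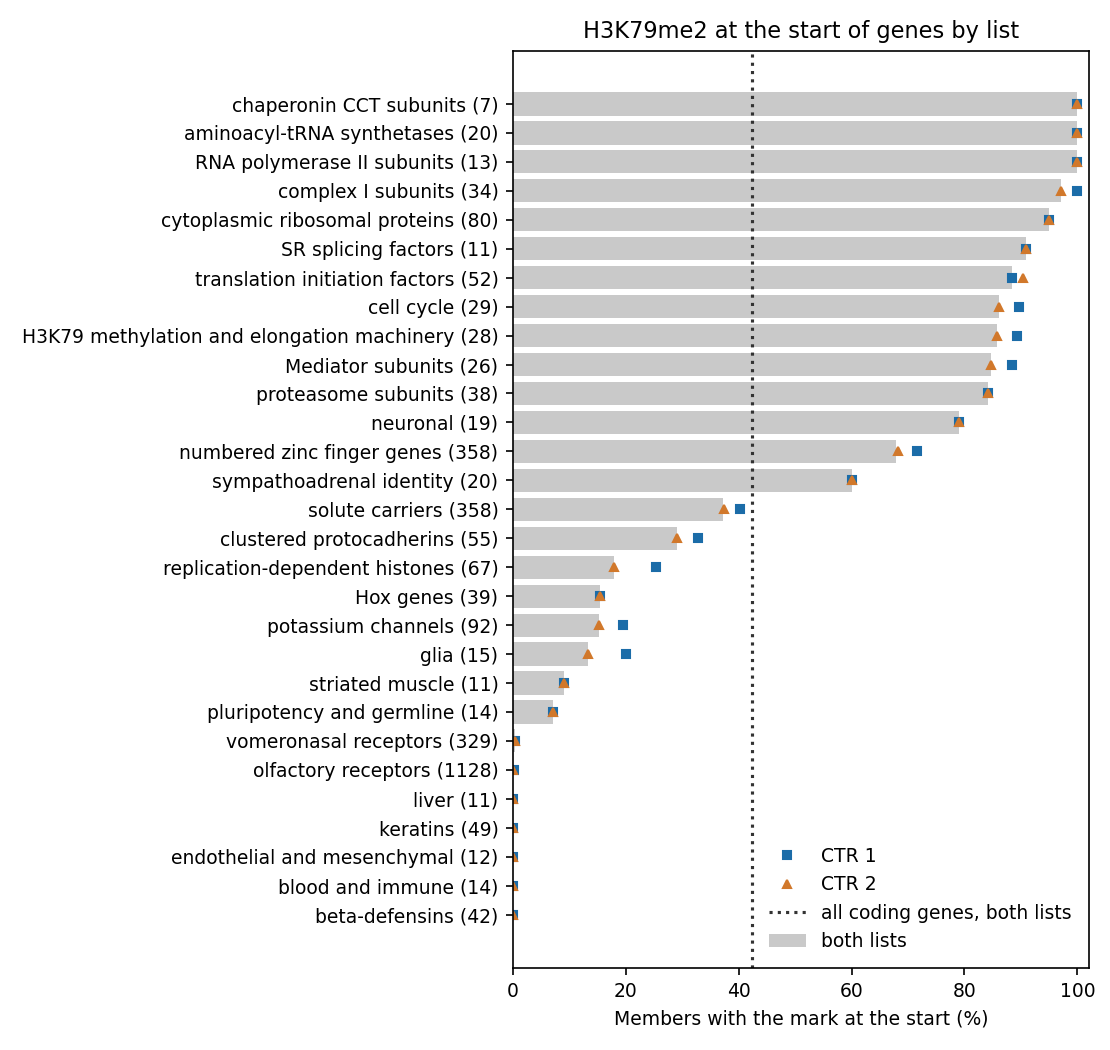
Share of members marked at the start (x axis, percent) in 29 gene lists (y axis, number of members in brackets), as bars for both lists and points for CTR 1 and CTR 2, with a dotted line at 42.4% for all coding genes. Lists of basic cell functions lie at 84.2% or above, and receptor, keratin and defensin families at or near 0.

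Genes of basic cell functions were marked almost throughout, against 42.4% of all coding genes. All 20 aminoacyl-tRNA synthetase genes, all 13 RNA polymerase II subunit genes and all 7 chaperonin CCT genes were marked in both libraries. Of complex I subunits 33 of 34 were marked, of cytoplasmic ribosomal proteins 76 of 80, of SR splicing factors 10 of 11, of translation initiation factors 46 of 52, of Mediator subunits 22 of 26 and of proteasome subunits 32 of 38. A promoter CpG ratio of at least 0.6 was found in 17 synthetase, 13 polymerase and 7 chaperonin genes. For the other families, in the order given, it was found in 25, 63, 9, 41, 21 and 27 genes. Of all coding genes with such a ratio 74.0% were marked. Whether these families differ from their promoter class was not tested. Ribosomal protein genes are short, with a median length of 3399.5 bp, and 65 of 80 were covered over at least 90% of the body, against 9.38% of all coding genes. Ribosomal protein genes were also strong: 29 of the 76 marked were above percentile 98 in both libraries, against 8.29% of all marked genes. Chaperonin CCT genes had 3 of 7 and SR splicing factors 4 of 10 above this rank. Rps6 was covered over 100% of its body in CTR 1 and 92.5% in CTR 2. Rpl3 was covered over 51.8% and 44.4% of a 14.1 kb record that begins upstream of its principal start, from which the run was 5.19 kb. Psma1, a proteasome subunit, had 8.69 and 8.37 kb.

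Aminoacyl-tRNA synthetase genes had the longest median run of these families, 15169 bp, against 5412 bp for complex I and 3208 bp for ribosomal proteins. Median gene lengths were 25324, 8542 and 3399.5 bp in the same order, so the order of runs is also that of gene lengths.

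Most genes of the machinery that writes the mark and of elongation were marked. Of 28 genes 24 were marked (85.7%), against 42.4% of all coding genes. A promoter CpG ratio of at least 0.6 was found in 21 of the 28. At least 90% of the body was shared in 6, against 9.38% of all coding genes, and the median member was shared over 54.3%. Dot1l, Mllt10, Ccnt1, Ccnt2 and Cdk9, described next, are among these 6. Dot1l, the H3K79 methyltransferase, was covered over 100% of its 40256 bp in CTR 1 and 94.4% in CTR 2, and ranked at 98.3 and 99.2. Mllt10, a DOT1L cofactor, was covered over 99.2% and 97.7% of 157 kb, although a gap stopped the run at 1.14 and 1.11 kb. Ccnt1 and Ccnt2, the cyclins of the kinase P-TEFb, were covered to at least 99.8% in each library. Cdk9, their kinase, was covered over 93.8% and 91.2%, and Ctr9, of the PAF1 complex, over 27.6% and 24.7%. The family members with 0 bp were Aff3, Ell2 and Ell3, whereas their relatives Aff1, Aff4 and Ell were covered.

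Cell cycle genes were marked in 25 of 29 cases (86.2%), against 42.4% of all coding genes. Of the 29 promoters 24 had a CpG ratio of at least 0.6, a class in which 74.0% of all coding genes were marked. Cdk1, the mitotic kinase, was covered from end to end with ranks of 99.8 and 99.7, and Mki67, the proliferation marker, over 94.7% and 96.7%. In Ccnd1, which encodes a D-type cyclin, the run was 8265 and 7417 bp. Ccnd2 and Cdk6 had 0 bp in either list, while Cdk4, the partner kinase of the same cyclins, was covered over its whole body.

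Hox genes, which pattern the body axis, were marked in 6 of 39 cases (15.4%), against 42.4% of all coding genes. All 6 belonged to the C cluster. A single shared segment of 46.4 kb on chromosome 15 (102966770 to 103013178) held the bodies of Hoxc10, Hoxc9, Hoxc8 and Hoxc6. In CTR 1 this segment measured 46.6 kb and in CTR 2 46.4 kb. Hoxc5, whose record spans Hoxc9, Hoxc8 and Hoxc6, was shared over 97.1% of 49987 bp, and Hoxc4 over 37.5%. Since these records overlap, the 6 genes are not separate observations. Hoxc11, Hoxc12 and Hoxc13, on the other side of Hoxc10, had 0 bp, as had every member of the A, B and D clusters, Hoxa5 and Hoxd13 included. Of the 39 promoters 26 had a CpG ratio of at least 0.6.

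Other families were set beside the 42.4% of all coding genes that were marked. Potassium channels were marked in 14 of 92 cases (15.2%), replication-dependent histones in 12 of 67 (17.9%) and clustered protocadherins in 16 of 55 (29.1%), whereas solute carriers, with 133 of 358 (37.2%), lay near this share. Clustered protocadherins, whose records overlap in part, had a covered body more often than a marked start: 3 of 55 had no covered bp, against 46.9% of all coding genes, and the median member was shared over 31.6% of its body, against 1.08%. Replication-dependent histones were marked in 17 cases in CTR 1 and 12 in CTR 2. Numbered zinc finger genes were marked in 243 of 358 cases (67.9%). Of pluripotency and germline genes 1 of 14 was marked, Dppa4, with 4092 and 3204 bp, and Pou5f1 and Prm1 had 0 bp. Receptors of smell were almost bare, with 1 of 1128 olfactory receptors and 1 of 329 vomeronasal receptors marked. The marked genes, Olfr1047 and Vmn1r4, had 65 and 0 shared bp in the body. None of 49 keratin genes, Krt5 and Krt8 included, had a covered bp. None of 42 beta-defensin genes was marked and 41 had no covered bp, whereas Defb42 was shared over 52.4% of its body.

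Chromosomes differed in the share of marked genes, from 31.9% on chromosome 14 and 33.9% on chromosome 7 to 51.0% on chromosome 8 and 51.5% on chromosome 12. The libraries differed most on chromosome 8, with 54.5% in CTR 1 and 51.3% in CTR 2. Chromosome 7 carries 398 of the olfactory and vomeronasal receptor genes, and without them its share was 42.2%. Chromosome 14 carries 42, and its share without them was 33.5%, the lowest of all 19 chromosomes. Shared bases made up from 5.37% of chromosome 14 to 12.4% of chromosome 11.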

How the data were processed

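H3K79me2 peak lists of the 2 CTR libraries were analysed. According to the study and the submitters' processing notes, the authors aligned reads to mm10 (GRCm38) with Bowtie2 2.3.4.1 and called peaks per library with MACS2 (2.2.6 in the notes). Whether the pooled input was the background is not given in the sources used here. Fold values, as deposited, give the ratio of a peak's pileup to its background. The −log10 p and −log10 q were deposited as MACS2 gave them, and the deposited score is 10 times −log10 q cut to a whole number. Peak names of the narrow lists lack the word filtered that the broad lists carry.

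Genes came from GENCODE mouse release 21, on the same build. Intervals were computed with Python 3.11.15, numpy 2.4.6 and pandas 2.3.3, Spearman rho with scipy 1.17.1 (across genes, no p), and sequences were read with pysam 0.24.0. Background pileup was solved from the fold and −log10 p of 75539 narrow peaks in CTR 1 and 65750 in CTR 2. The narrow lists held 85655 and 73801. Of the peaks used, 100% matched a whole pileup within 0.001. Interval functions were tested on simulated data. No test between groups was run. Members and gene lists were chosen with earlier results of these data known. Named genes were examples fixed per list and the 6 genes with the longest run, taken in the library where it was shorter. The 6 highest ranks at 5 kb or more and the 4 largest differences in run were added. So were the 4 longest genes covered over 90% or more, or over 0 bp. Placeholder symbols were left out. Further list members, given in the text as such, were named after their values were seen. The lists give no read numbers, so precision can be judged only by the difference between libraries, which does not cover the choice of shared bases. Alternatives were either list, narrow lists, a minimum −log10 q of 5, joined segments, equal list size, the start base, the principal transcript, isolated genes and each library alone. Some genes of these lists are counted but not reported here by name.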

Additional observations from a re-analysis of the deposited data

How the results depend on the processing

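Counts of marked, uncovered and covered genes, the median run, the shares ending at the gene end and in the first intron, the CpG difference, the chromosome range, list counts and the coverage of named genes were recomputed under the alternatives. Of these, only the CpG difference could change sign, and it stayed positive. The others of this group cannot be negative, so only their size can be compared. The summit position, which can lie upstream of the start, was recomputed with each library alone, at the stricter q, at the principal start and in isolated genes. Its median stayed downstream of the start in each. Medians by class of length, rank or first intron were not recomputed beyond the values given above for single libraries and, for first introns, isolated genes. No paired analysis was possible because a single group was analysed. Left with 1 library at a time, the median run of 7112 bp was 7140.5 to 7521 bp, the share of runs to the gene end (14.2%) was 15.1 to 15.8%, the share ending in the first intron (18.9%) was 17.8 to 18.6%, the CpG ratio difference between marked and other genes (0.528) was 0.529 to 0.533 and the range over chromosomes (19.5 percentage points) was 19.2 to 21.1.

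In the same order of run, gene end and first intron, bases in either list gave 7734 bp, 17.1% and 17.0%, narrow lists 5283 bp, 9.25% and 27.3%, a minimum −log10 q of 5 gave 8023 bp, 15.2% and 15.7%, and segments joined within 1 kb gave 8052 bp, 16.1% and 16.4%. The start base alone gave 5238 marked genes, 8253.5 bp, 18.3% and 13.5%. Isolated genes gave 2890 of 9757 marked, 6028 with no covered bp, 629 covered over at least 90%, 11227 bp, 11.4%, 22.1% and a summit median of 1106.5 bp against 819. The principal start gave 19.5% ending in the first intron. The CpG difference was 0.534 in either list, 0.520 at the stricter q, 0.448 at the start base, 0.534 at the principal start and 0.555 in isolated genes. The chromosome range was 21.1 points at the stricter q and 22.8 in isolated genes. The causes were not tested. Among the counts for 29 lists, 252 of 290 stayed within a factor of 1.5 of the main value and 38 moved. Of the latter 21 were in isolated genes, where lists have fewer members. Lists without a marked gene under both settings count as unmoved. Of 522 values for the body share of named genes 137 moved, here by more than 1 standard deviation between the 2 libraries. Genes without a covered bp under both settings count as unmoved here too.

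Runs depend on gaps: a single gap ends a run in a gene otherwise covered, as in Mllt10 and Gse1, whose joined runs were 148.5 and 233 kb. Neighbouring genes can share a peak, and read numbers are unknown.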
